A study of Mus musculus with 2 samples.

Results

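The rod phototransduction cascade was described through 9 genes, taken as a list of its transducer, effector, channel and shutoff components, of 25778 genes in the count table. All 9 (Gnat1, Gnb1, Gngt1, Pde6a, Pde6b, Pde6g, Cnga1, Cngb1 and Sag) were found in the table, and all 9 met the minimum level set for comparing genotypes in rods. Whole retinas of mice aged 30 days were profiled by droplet single-cell RNA sequencing of 3′ mRNA ends. Ptbp1-Ctrl carried the Chx10-Cre transgene, and Ptbp1-KO carried Chx10-Cre with both copies of Ptbp1 floxed (Ptbp1lox/lox), so Cre recombinase was common to both. Chx10-Cre acts in retinal progenitors, so the loss of Ptbp1 precedes the birth of the rods measured here. Each genotype was 1 library, so every comparison below is between 2 libraries with no replicate check, and genotype, animal and library cannot be told apart.

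Ptbp1-Ctrl held 10058 rods with 13038207 unique molecular identifiers (UMIs, each standing for 1 captured RNA molecule), and Ptbp1-KO held 9301 rods with 14494233 UMIs. The median depth of a rod was 1088 UMIs for Ptbp1-Ctrl, against 1288 for Ptbp1-KO. Levels are given as CPM, meaning a gene's UMIs out of every 1000000 UMIs once the cells of a type are added up. The intervals, at 95%, express the error of counting and not that between animals. Rods of Ptbp1-Ctrl gave 255 UMIs of Ptbp1 itself (19.6 CPM), and those of Ptbp1-KO gave 4 (0.276 CPM). The rod name held against its markers, since the summed level of Nrl, Nr2e3, Reep6 and Rom1 was 6280 CPM in rods of Ptbp1-Ctrl and 5419 CPM in rods of Ptbp1-KO, and did not exceed 4602 CPM in any other type. That highest value outside rods was in the retinal ganglion cells (RGC) of Ptbp1-KO. A total of 63 cell barcodes occurred in both libraries, and leaving them out moved no rod ratio of the 9 genes beyond counting error.

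In a rod, light-activated visual pigment switches on the G protein transducin, which is built from the alpha subunit Gnat1, the beta subunit Gnb1 and the gamma subunit Gngt1. The alpha subunit releases the brake that Pde6g, the inhibitory gamma subunit, holds on the catalytic phosphodiesterase subunits Pde6a and Pde6b, which then hydrolyse cyclic GMP. The fall in cyclic GMP closes the channel made of Cnga1 and Cngb1, and the arrestin Sag binds the phosphorylated pigment to end the response. Cones use a parallel set of proteins from separate genes, while Gnb1 also serves in many cells outside the photoreceptors.

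The promoters of 4 of these genes are printed, each with the CRX motif, the NRL motif or both. These are short motifs that the photoreceptor transcription factors CRX and NRL are known to bind. The CRX motif was searched as TAATCC or its reverse complement GGATTA, and the NRL motif as TGCTGA or its reverse complement TCAGCA. Promoter windows from RefSeq, 250 bases before to 50 bases after the start on build GRCm38.p6, were used for 6 of the 9 genes. Promoters of Gnat1, Pde6a and Pde6g were not analysed here. Motif letters are in capitals in the 4 windows that follow, each written 5′ to 3′ on the strand of its gene.
Sag (chr1:87803430-87803729, plus strand): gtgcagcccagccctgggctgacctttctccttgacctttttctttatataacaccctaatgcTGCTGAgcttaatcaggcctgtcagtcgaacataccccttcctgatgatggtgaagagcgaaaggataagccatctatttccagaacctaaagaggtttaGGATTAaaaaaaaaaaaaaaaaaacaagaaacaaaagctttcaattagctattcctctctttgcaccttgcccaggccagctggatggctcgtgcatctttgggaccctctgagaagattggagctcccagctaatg
Cngb1 (chr8:95306536-95306835, minus strand): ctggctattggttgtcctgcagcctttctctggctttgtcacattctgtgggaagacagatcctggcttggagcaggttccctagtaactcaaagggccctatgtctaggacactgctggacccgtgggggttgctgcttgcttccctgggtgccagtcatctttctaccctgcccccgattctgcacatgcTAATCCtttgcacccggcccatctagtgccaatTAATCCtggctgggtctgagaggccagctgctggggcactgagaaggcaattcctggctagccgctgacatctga
Gngt1 (chr6:3993758-3994057, plus strand): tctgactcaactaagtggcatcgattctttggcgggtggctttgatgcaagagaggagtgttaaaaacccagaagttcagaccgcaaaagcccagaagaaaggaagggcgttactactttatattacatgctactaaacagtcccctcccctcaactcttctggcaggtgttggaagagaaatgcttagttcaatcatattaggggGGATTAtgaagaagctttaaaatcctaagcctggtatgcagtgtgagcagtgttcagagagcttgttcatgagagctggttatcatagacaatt
Pde6b (chr5:108388123-108388422, plus strand): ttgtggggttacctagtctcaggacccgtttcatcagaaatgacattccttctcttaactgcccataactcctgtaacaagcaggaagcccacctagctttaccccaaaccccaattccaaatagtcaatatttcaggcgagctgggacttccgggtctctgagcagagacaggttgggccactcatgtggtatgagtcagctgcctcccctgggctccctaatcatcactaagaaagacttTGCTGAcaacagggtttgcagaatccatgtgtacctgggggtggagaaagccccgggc
The CRX motif was present in 4 of the 6 windows (Gngt1, Cnga1, Cngb1 and Sag), against 7.06% of 32851 mouse promoters of the same length. Cngb1 held 2 copies, which began at positions -58 and -25 relative to the start. The NRL motif was present in 2 of the 6 windows (Pde6b and Sag), against 19.5% of all promoters, and began at -8 in Pde6b. Sag held both motifs, as 1.36% of all promoters did, and the Gnb1 window held neither. These are matches of letters and not measured binding sites.

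On the mouse genome GRCm38 (mm10), the transducin genes lie at chr9:107674474-107679712 (Gnat1, minus strand), chr4:155491361-155559269 (Gnb1, plus strand) and chr6:3993792-3997436 (Gngt1, plus strand). The phosphodiesterase genes lie at chr18:61220315-61289924 (Pde6a, plus strand), chr5:108388391-108432397 (Pde6b, plus strand) and chr11:120447605-120453500 (Pde6g, minus strand). The channel genes lie at chr5:72603696-72644275 (Cnga1, minus strand) and chr8:95239045-95306585 (Cngb1, minus strand), and Sag lies at chr1:87803680-87845158 on the plus strand. All 9 are annotated as protein coding.

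The summed RNA of the 9 genes was slightly lower in rods of Ptbp1-KO, and Pde6g had the lowest ratio of the 9. Together the 9 genes made up 4.40% of rod UMIs in Ptbp1-Ctrl, against 4.11% in Ptbp1-KO. Of the 9 genes, 1 (Pde6g) was lower in Ptbp1-KO past 1.2-fold, against 5.91% of the 3855 genes compared in rods, and 0 were higher past 1.2-fold, against 6.25%. The median log2 ratio of Ptbp1-KO over Ptbp1-Ctrl was -0.09 for the 9 genes and 0.00 for all genes compared. The counting interval of the ratio lay wholly below 0 for 6 of the 9 genes and above 0 for none. Scaling the libraries with DESeq2 size factors in place of total UMIs lowered every log2 ratio by 0.11, so that 17% of genes compared were lower and 2.91% higher past 1.2-fold, and 2 of the 9 were lower. With edgeR TMM factors 14.4% of genes were lower and 3.06% higher, and 1 of the 9 was lower. Either scaling shifts all genes by 1 constant, so the median of all genes compared became -0.11 with DESeq2 and -0.09 with TMM, and the distance of each of the 9 genes from that median was unaltered. Gnat1 and Pde6a, within 0.02 of 0 beforehand, came to lie below 0 through that constant. The count of genes lower past 1.2-fold also depended on how rods were weighted. It was 0 of the 9 with rods weighted by the clusters described below, against 4.1% of genes compared. With rods weighted by the depth classes described below it was 3 of the 9, against 15.9%.

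Among the transducin subunits, Gnat1 was at 5362 CPM in rods of Ptbp1-Ctrl and 5395 CPM in rods of Ptbp1-KO, a log2 ratio of 0.01 with an interval that included 0 (-0.0059 to 0.024). Gnb1 was at 8481 CPM and 7745 CPM in the same order, a log2 ratio of -0.13. Gngt1 was at 7572 CPM and 6963 CPM, a log2 ratio of -0.12. Over all rods the alpha subunit thus stood level between the libraries while both its partners were slightly lower in Ptbp1-KO, by less than 1.2-fold. This depended on how rods were scaled and weighted. Among the alternatives tried, the log2 ratio ran from -0.31 to 0.18 for Gnat1 and from -0.35 to 0.018 for Gngt1. That of Gnb1 stayed below 0, from -0.26 to -0.064.

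The catalytic phosphodiesterase subunits were level, and their inhibitor was not. Pde6a was at 1910 CPM in Ptbp1-Ctrl, against 1934 CPM in Ptbp1-KO (log2 ratio 0.02), and Pde6b was at 1935 CPM and 1910 CPM (log2 ratio -0.02). Pde6g was at 4659 CPM (4622 to 4696) in rods of Ptbp1-Ctrl and 3548 CPM (3517 to 3578) in rods of Ptbp1-KO. Its ratio of 0.762, or -0.39 on the log2 scale (-0.41 to -0.38), was the lowest of the 9. Cnga1 stood at 1443 CPM and 1285 CPM (log2 ratio -0.17), its channel partner Cngb1 at 1154 CPM and 1080 CPM (log2 ratio -0.09), and Sag at 11477 CPM and 11228 CPM (log2 ratio -0.03).

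**Figure D1:**
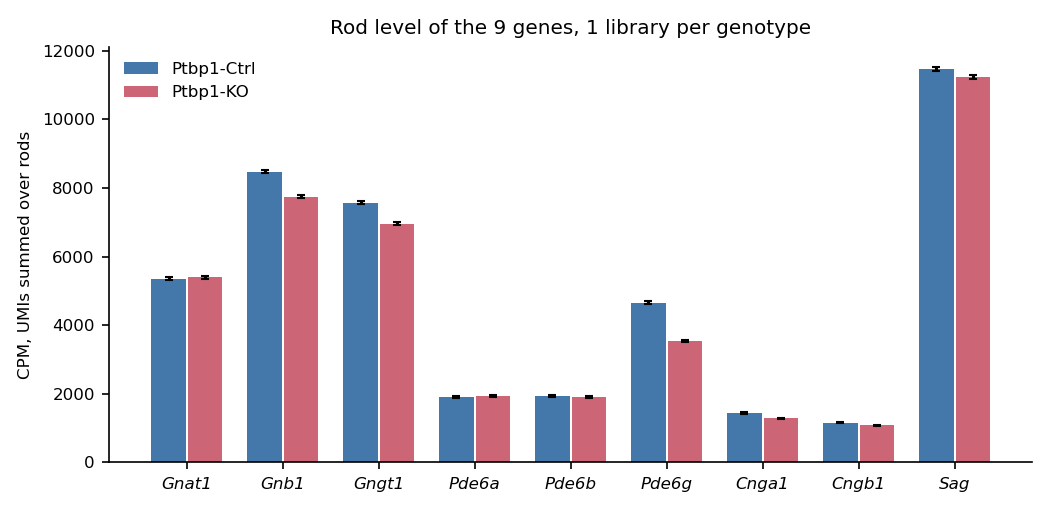
CPM of each of the 9 genes summed over rods, with Ptbp1-Ctrl in blue and Ptbp1-KO in red, 1 library each; error bars are exact Poisson 95% intervals for counting error. Pde6g shows the widest relative gap (4659 against 3548 CPM), and the paired bars of Gnat1, Pde6a and Pde6b are nearly level.

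Another 11 genes of rod phototransduction and its recovery, which include the recoverin gene Rcvrn, the kinase gene Grk1 and the guanylate cyclase genes, were compared with the same limits. All 11 met the minimum level, and 0 were lower or higher past 1.2-fold, against 5.91% and 6.25% of all genes compared. Their median log2 ratio was -0.18, with 9 of 11 below 0. The lowest were Rgs9bp (-0.25), the membrane anchor of the transducin-inactivating complex, and Guca1a (-0.22), a calcium sensor of guanylate cyclase. The highest were Gnb5 (0.05) and Rgs9 (0.04), which both belong to the same inactivating complex as Rgs9bp.

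The deposited cell table split the rods into clusters 0 to 3, and the 9 genes differed far more between these clusters than between genotypes. Since the clusters were built from the same cells and genes, their levels are a description. In Ptbp1-Ctrl the summed level of the 9 genes was 31132 CPM in cluster 0, 32617 CPM in cluster 1, 46608 CPM in cluster 2 and 66919 CPM in cluster 3. In Ptbp1-KO the sums were 30147, 28490, 46808 and 69320 CPM in the same order. At 1000 UMIs per cell, a median of 31 of those UMIs came from the 9 genes in a cluster 0 rod of Ptbp1-Ctrl and 68 in a cluster 3 rod, with medians of 30 and 71 in Ptbp1-KO.

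The genes of the cascade did not share this gradient equally. Gnat1 was at 2265 CPM in cluster 0 and 11270 CPM in cluster 3 of Ptbp1-Ctrl, and at 2410 CPM and 13557 CPM in Ptbp1-KO, so that cluster 3 stood 4.97 and 5.63 times above cluster 0. Gngt1 stood 4.03 times above cluster 0 in both libraries. For Pde6g the same ratio was 4.11 in Ptbp1-Ctrl and 4.65 in Ptbp1-KO.

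By contrast, the catalytic subunit Pde6b stood only 1.05 and 1.12 times higher in cluster 3 than in cluster 0, and Sag at most 1.12 times. The ratios were 1.34 and 1.55 for Pde6a, 1.60 and 1.78 for Cnga1, 1.49 and 1.61 for Cngb1, and 2.02 and 2.14 for Gnb1. The order of the ratios therefore put Gnat1, Gngt1 and Pde6g in a high group and Sag and Pde6b lowest in both libraries. Depth and mitochondrial content differed between the clusters. The median rod had 936 and 1063.5 UMIs in cluster 0 and 1431 and 1993 UMIs in cluster 3 (Ptbp1-Ctrl and Ptbp1-KO), and its median mitochondrial share was 0.662% and 0.801% in cluster 0 and 5.12% and 4.60% in cluster 3. Cluster 1 had a mitochondrial share like that of cluster 3 (4.20% and 4.65%), but its depth (884 and 929.5 UMIs) and its sum of the 9 genes were near those of cluster 0. The part of these differences in the gradient was not tested.

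**Figure D2:**
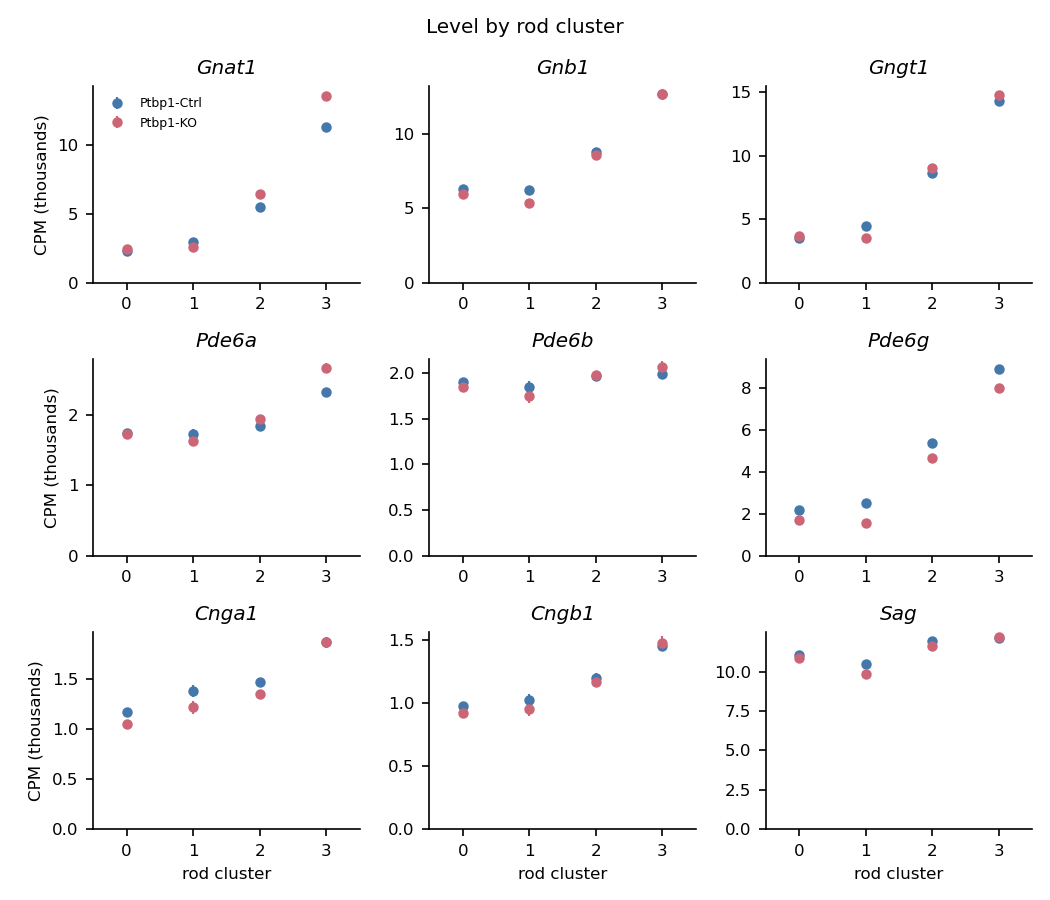
CPM (axis in units of 1000 CPM) of each gene in rod clusters 0 to 3, with Ptbp1-Ctrl in blue and Ptbp1-KO in red, 1 library each, and exact Poisson 95% intervals. Gnat1, Gngt1 and Pde6g climb from cluster 0 to cluster 3, while Pde6b and Sag stay within 1.12 times of their cluster 0 level there.

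Rods were spread differently over these clusters in the 2 libraries. Cluster 0, with the low levels, held 45.9% of rods in Ptbp1-Ctrl, against 58.7% in Ptbp1-KO, and cluster 3, with the high levels, held 18.2% and 10.5%. Clusters 1 and 2 held 15.2% and 20.7% of rods in Ptbp1-Ctrl, and 12.2% and 18.6% in Ptbp1-KO. The clusters were made with these genes, so the shares are no separate evidence of a difference in the cascade, but a ratio over all rods combines them with the levels inside each cluster.

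Inside the clusters the genotype ratios separated by gene. Gnat1 was higher in Ptbp1-KO in cluster 2, from 5472 to 6459 CPM (log2 ratio 0.24), and in cluster 3, from 11270 to 13557 CPM (log2 ratio 0.27). In cluster 0 its log2 ratio was 0.09, and in cluster 1 it was -0.17. Gnat1 was the 1 gene of the 9 that was higher past 1.2-fold in cluster 3, against 9.74% of genes compared there.

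Pde6g was lower in Ptbp1-KO in every cluster. It was at 2162 and 1716 CPM in cluster 0 (log2 ratio -0.33), 2521 and 1576 CPM in cluster 1 (-0.68), 5359 and 4651 CPM in cluster 2 (-0.20), and 8881 and 7983 CPM in cluster 3 (-0.15). Gngt1 was lower past 1.2-fold in cluster 1 (log2 ratio -0.35) and within 0.07 of 0 in the other clusters. Cluster 1 was the shallowest, and its 2 of 9 genes lower past 1.2-fold stand against 17.1% of all genes compared there. In clusters 0, 2 and 3, 1, 0 and 0 of the 9 genes were lower past 1.2-fold, against 5.71%, 6.59% and 8.4% of genes compared. None of the 9 was higher past 1.2-fold in clusters 0, 1 and 2, where 6.97%, 13.8% and 7.8% of genes were. The median log2 ratio of the 9 genes was -0.04, -0.17, -0.03 and 0.02 in clusters 0 to 3.

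Splitting rods by depth gave another picture of the same genes. Rods were placed in 4 classes, split at 1000, 1500 and 2500 UMIs per cell, and depth was not matched inside a class. Below 1000 UMIs, Gnat1 was at 2685 CPM in Ptbp1-Ctrl, against 1866 CPM in Ptbp1-KO (log2 ratio -0.53), and from 1000 to 1500 UMIs at 5234 and 3576 CPM (-0.55). From 1500 to 2500 UMIs and from 2500 UMIs on, the log2 ratios of Gnat1 were -0.07 and -0.08. Gnat1, which was level over all rods, was thus lower in Ptbp1-KO in all 4 depth classes and higher in 3 of the 4 clusters.

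Pde6g was lower in each of the 4 depth classes, with log2 ratios of -0.92, -0.96, -0.40 and -0.39 from the shallowest to the deepest. Below 1000 UMIs it was at 2464 CPM in Ptbp1-Ctrl, against 1301 CPM in Ptbp1-KO. Gngt1 had log2 ratios of -0.43, -0.62, -0.11 and -0.17. Pde6b stayed between -0.09 and 0.02, and Sag between -0.10 and 0.00. The median log2 ratio over the 9 genes was -0.23, -0.33, -0.11 and -0.14.

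The cluster mix moved with these values. Below 1000 UMIs, cluster 3 held 173 of 4155 rods (4.16%) in Ptbp1-Ctrl and 4 of 3126 rods (0.128%) in Ptbp1-KO. From 2500 UMIs on it held 53.2% of rods in Ptbp1-Ctrl, against 30.1% in Ptbp1-KO. With each cluster given the same weight in both libraries, the log2 ratio was 0.18 for Gnat1, 0.02 for Gngt1 and -0.26 for Pde6g, and with clusters and depth classes fixed together it was 0.07, -0.02 and -0.33. The direction of Gnat1 and Pde6a differed between depth classes and clusters as weights, and Gngt1 was above 0 only when weighted by cluster. Pde6g stayed below 0 in all alternatives tried, from -0.68 to -0.26. The weighted ratios were chosen after the data had been seen.

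**Figure D3:**
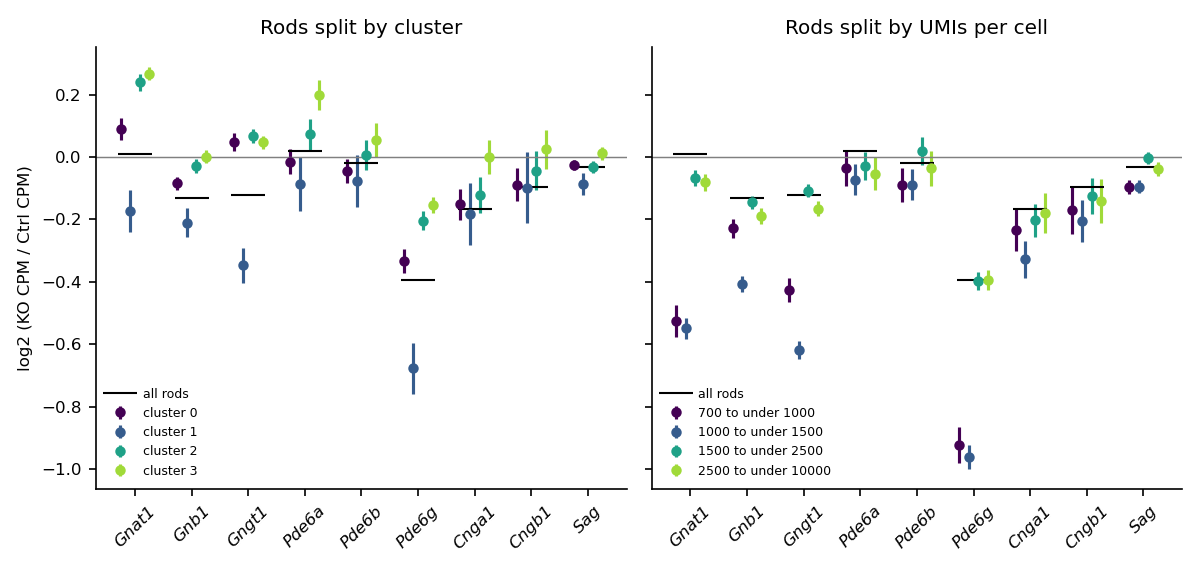
Log2 ratio of Ptbp1-KO over Ptbp1-Ctrl CPM for each gene, with rods split by cluster (left) or by UMIs per cell (right); dots are ratios with exact 95% counting intervals, black bars the ratio over all rods, and the grey line is 0. Gnat1 lies above 0 in clusters 0, 2 and 3 but below 0 in all depth classes, and Pde6g lies below 0 throughout.

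Per cell, detection in rods ran from nearly all cells for Sag to 67.3% and 64.4% of cells for Cngb1. With each cell thinned to 1000 UMIs, which left out 4155 rods of Ptbp1-Ctrl and 3126 of Ptbp1-KO, Sag had a UMI in 5902 of 5903 rods and 6173 of 6175 rods. Gnat1 had a UMI in 93.6% and 91.8% of rods, and the catalytic subunit Pde6a in 83.6% and 82.3%. Pde6g showed the widest gap, with a UMI in 93.3% of rods of Ptbp1-Ctrl and 85.6% of rods of Ptbp1-KO. As a background, the same share for Pde6g in Müller glia (MG), which should lack it, was 40.6% and 30.9%, and for Gnat1 41.3% and 41.7%. Without thinning, Pde6g had a UMI in 88.6% and 81.7% of rods (median 1088 and 1288 UMIs) and 69.8% and 65.2% of MG (median 3333 and 4178 UMIs).

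Most cascade RNA of each library lay in cells named rods, and the rest was spread over all other types. Rods held 72.6% to 80.9% of the UMIs of the 9 genes in Ptbp1-Ctrl and 73.9% to 83.6% in Ptbp1-KO, against 39.8% and 41.0% of all UMIs. As a percentage of the rod level of the same library, the median of the 9 genes was 16.2% in bipolar cells (BC), 17.9% in amacrine cells (AC) and 16.1% in MG of Ptbp1-Ctrl. In Ptbp1-KO these medians were 15.1%, 16.6% and 12.6%. The 17 and 7 horizontal cells (HC) had medians of 8.72% and 9.05%.

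In MG the 9 genes lay in a narrow band, from 14.4% of the rod level for Cnga1 to 18.0% for Gngt1 in Ptbp1-Ctrl, and from 12.1% for Cnga1 to 16.6% for Gngt1 in Ptbp1-KO. All 9 were lower in MG of Ptbp1-KO, 6 of them past 1.2-fold, against 11.4% of genes compared in MG. The 6 were Gnb1, Pde6b, Pde6g, Cnga1, Cngb1 and Sag, and the median log2 ratio was -0.33. Sag, for example, was at 1707 CPM in MG of Ptbp1-Ctrl and 1359 CPM in MG of Ptbp1-KO. In MG the 9 genes serve as a measure of rod RNA outside rods, so their ratios there are not 9 separate results. Median depth in MG was 3333 UMIs in Ptbp1-Ctrl and 4178 UMIs in Ptbp1-KO, and its part in these ratios was not tested. All 9 ratios were also below 0 in BC, with 3 of 9 past 1.2-fold (Gnb1, Pde6g and Cnga1) against 4.41% of genes compared there. In AC and in cones the same 2 genes, Pde6g and Cnga1, were lower past 1.2-fold, against 8.01% and 13.2%. None of the 9 was higher past 1.2-fold in MG, BC, AC or cones, where 8.61%, 4.65%, 9.04% and 12% of genes compared were.

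The cells named RGC stood apart. The median of the 9 genes there was 58.0% of the rod level in 124 cells of Ptbp1-Ctrl and 68.6% in 97 cells of Ptbp1-KO, and Gngt1 reached 69.7% and 95.1%. The summed level of the rod markers was 3896 and 4602 CPM in these cells, and that of the RGC markers 2333 and 1372 CPM. Gnat1 was at 3215 CPM in RGC of Ptbp1-Ctrl and 4978 CPM in RGC of Ptbp1-KO. Levels in this group are therefore given as values only.

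Cones departed from the common background for 3 genes. In Ptbp1-Ctrl, Gngt1 was at 4471 CPM in cones (59.1% of the rod level), Pde6g at 3119 CPM (67.0%) and Sag at 6397 CPM (55.7%). In Ptbp1-KO the same genes were at 4605 CPM (66.1%), 2475 CPM (69.8%) and 5893 CPM (52.5%). The other 6 genes lay between 21.0% and 25.2% of the rod level in cones of Ptbp1-Ctrl and between 20.8% and 28.5% in cones of Ptbp1-KO, so the 3 genes stood above the rest in both libraries.

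The same split was seen per cell. At 1000 UMIs, Gngt1 had a UMI in 96.3% and 93.2% of cones, against 69.0% and 65.1% of BC, and Sag in 98.1% and 97.9% of cones, against 65.4% and 56.3% of BC. Gnat1, in contrast, had a UMI in 50.3% and 54.8% of cones and 43.1% and 40.5% of BC. RNA of the cone counterparts was scarce in rods. The rod level of Gnat2, Gnb3, Gngt2, Pde6c, Pde6h, Cnga3, Cngb3 and Arr3 was between 0.274% and 2.39% of the cone level in Ptbp1-Ctrl and between 0.494% and 2.55% in Ptbp1-KO.

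**Figure D4:**
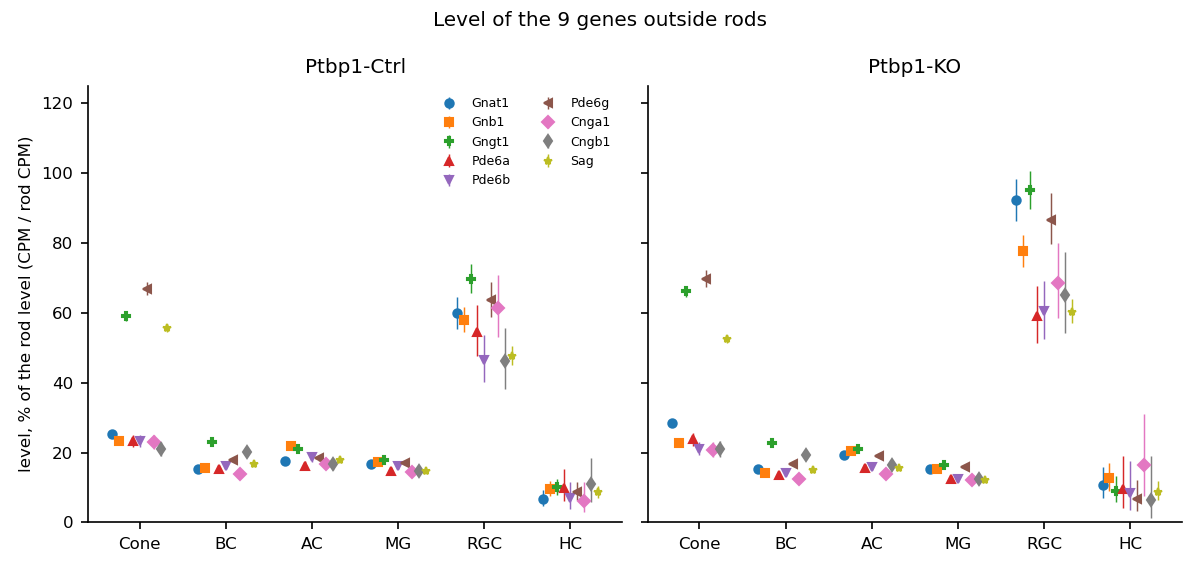
Level of each gene outside rods as a percentage of its rod level in the same library, by cell type, for Ptbp1-Ctrl (left) and Ptbp1-KO (right); bars are exact 95% counting intervals. In cones, Gngt1, Pde6g and Sag lie at 52.5% or more while the other genes lie at 28.5% or less, and in MG all 9 genes lie between 12.1% and 18.0%.

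Among the BC, Gngt1 and Cngb1 were the highest of the 9 relative to rods, at 23.1% and 20.1% of the rod level in Ptbp1-Ctrl and 22.8% and 19.3% in Ptbp1-KO, and both varied between the BC clusters. In cluster 13, Gngt1 was at 47.7% of the rod level in 270 cells of Ptbp1-Ctrl and 42.2% in 234 cells of Ptbp1-KO, while the median of the 9 genes was 16.8% and 13.6%. At 1000 UMIs, Gngt1 had a UMI in 252 of 268 cluster 13 cells of Ptbp1-Ctrl and 215 of 234 of Ptbp1-KO, and Sag in 173 and 129 of the same cells. In cluster 19, Cngb1 was at 22.4% and 25.8% of the rod level, against medians of 10.9% and 10.6% for the 9 genes. Higher levels of Cngb1, 36.03% and 30.06%, were found in cluster 10, where Gngt1 was at 41.1% and 37.9% and the median of the 9 was also high (30.6% and 27.8%). In cluster 12, Gngt1 was at 26.3% and 27.9%, against medians of 15.2% and 15.4%.

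In BC cluster 21 the 3 genes that were high in cones were also the highest of the 9. Gngt1 was at 29.1% and 41.2% of the rod level there, Pde6g at 31.5% and 37.1%, and Sag at 25.7% and 29.4%, in 118 cells of Ptbp1-Ctrl and 81 cells of Ptbp1-KO. The median of the 9 genes was 8.81% and 11.2%. All 8 cone counterparts were also present, at 51.4% to 67.6% of the cone level in Ptbp1-Ctrl and 46.8% to 72.9% in Ptbp1-KO. Arr3, the cone arrestin gene, was at 3921 and 4030 CPM in cluster 21, and at 7.86 and 41.5 CPM in cluster 13. Of the 8 counterparts, Cngb3 (71.2% and 77.9% of the cone level) and Gnb3 (46.3% and 45.4%) were nevertheless high in cluster 13, while the other 6 did not exceed 8.62% and 9.18%. Gnb3 was not particular to cluster 13. It was at 60.6% and 64.0% of the cone level in cluster 19, and lowest among the BC clusters in cluster 18 (8.77% and 10.3%). The cells of cluster 21 were the deepest BC, with a median of 5432.5 and 7191 UMIs. The summed level of the BC markers Grm6, Trpm1, Prkca, Cabp5 and Vsx1 in cluster 21 was 990 and 923 CPM, and it was 1579 and 1546 CPM in cluster 13. The same sum was 4852 and 5258 CPM over all BC, 871 and 940 CPM in rods, and 230 and 228 CPM in cones. Doublets were not called here, and whether single cells or pairs of cells gave these values was not tested.

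Clusters 10 and 20 showed the highest background among the BC, with medians of 30.6% and 22.6% of the rod level in Ptbp1-Ctrl and 27.8% and 28.4% in Ptbp1-KO. They were also the shallowest BC, with median depths of 1529 and 1579 UMIs in Ptbp1-Ctrl, against 1858 and 1891 UMIs in Ptbp1-KO. The same held in MG, where cluster 16 had a median of 31.6% and 27.7% of the rod level and a median depth of 1314 and 1715 UMIs, against 15.6% and 12.4% in the main cluster 4, at 3475 and 4351 UMIs.

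**Figure D5:**
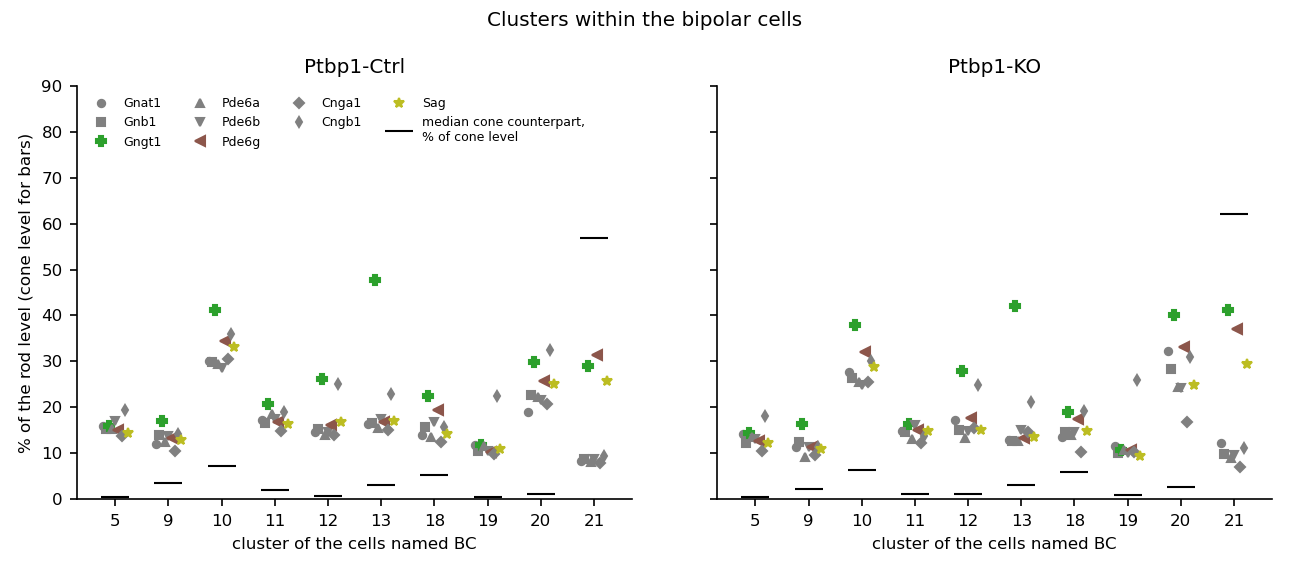
Level of the 9 genes in each cluster of the BC as a percentage of the rod level, for Ptbp1-Ctrl (left) and Ptbp1-KO (right), with Gngt1, Pde6g and Sag in colour and the other 6 in grey; black bars give the median level of the 8 cone counterparts as a percentage of the cone level. Gngt1 stands alone in cluster 13, and in cluster 21 Gngt1, Pde6g and Sag lie above the other 6 together with a cone counterpart median of 56.9% and 62.0%.

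Patterns over the 14 sums (7 cell types in 2 libraries) were compared with the mean of the 9 on the log2(CPM + 1) scale. Among the 5 genes most like it were Tdrd7 (Pearson r = 0.993), Agpat3 (0.989), Rdh12 (0.988) and Nrl (0.987), and 1 is not reported here. The 14 sums share their libraries and, through the background, part of their RNA, so these values are a description. Tdrd7 was at 440 CPM in rods of Ptbp1-Ctrl and 414 CPM in rods of Ptbp1-KO. Rdh12, a photoreceptor retinol dehydrogenase gene, was at 629 and 563 CPM in rods. Nrl, which encodes a transcription factor of rods, was at 1481 and 1185 CPM, a log2 ratio of -0.32.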

How the data were processed

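The members and gene lists were chosen with earlier results of these data known. Retinas of 1 Ptbp1-Ctrl and 1 Ptbp1-KO mouse were dissociated with papain and captured with 10x Genomics 3′ version 3.1 chemistry. Per the labels, the authors used Cell Ranger 7.0.1, the mm10 genome and Seurat 4. The gene annotation and the treatment of intronic reads are not given in the sources used here. The deposited count table holds raw UMI counts of 25778 genes in 30943 cells. The deposited cell table gives each cell's sample, cell type, cluster, total UMI counts and percent of mitochondrial UMIs. The authors' stated filter was over 200 and under 5000 genes, over 700 and under 10000 UMIs, and under 20% mitochondrial UMIs. All cell types and clusters were used as deposited.

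UMIs were summed over the cells of a type or cluster and library (Python 3.11.15, scipy 1.17.1) and given as CPM with exact Poisson intervals. Ratios have exact conditional binomial intervals and shares exact Clopper-Pearson intervals, all at 95%. With 1 animal per genotype no test was run, and the study's Wilcoxon test over cells was not used. Genes compared had a mean of at least 50 CPM and at least 50 UMIs over both libraries, and "past" a fold means a point ratio beyond 1.2. Thinning drew 1000 UMIs per cell. edgeR 4.0.16 (TMM) and DESeq2 1.42.0 (size factors) gave only alternative scalings. Calls and intervals were checked on simulated counts. Genes named are the 9 members, the 2 highest and 2 lowest of 11 pathway genes, 8 cone counterparts, Ptbp1, and the 5 genes most like the members, of which 1 is not reported here. BC clusters 10, 12, 13, 18, 19, 20 and 21, and MG clusters 4 and 16, were singled out after their values had been seen.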

Additional observations from a re-analysis of the deposited data

Results flagged for a closer look

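Several genes had ratios of Ptbp1-KO over Ptbp1-Ctrl of opposite sign in different groups of cells, with counting intervals on either side of 0. With 1 library per genotype, none of these differences was tested. Among the rod clusters, the log2 ratio of Gnat1 was 0.27 in cluster 3 and -0.17 in cluster 1, that of Gngt1 was 0.068 in cluster 2 and -0.35 in cluster 1, that of Pde6a was 0.20 in cluster 3 and -0.088 in cluster 1, and that of Pde6b was 0.055 in cluster 3 and -0.045 in cluster 0. Between cell types, the highest ratio with an interval above 0 was in RGC and the lowest with one below 0 in MG. For Gnat1 the interval also lay above 0 in cones (0.18) and AC (0.14). The log2 ratio was 0.63 in RGC and -0.11 in MG for Gnat1, 0.29 and -0.32 for Gnb1, 0.33 and -0.24 for Gngt1, 0.36 and -0.40 for Pde6b, 0.39 and -0.33 for Cngb1, and 0.31 and -0.33 for Sag. The RGC were 124 and 97 cells with a summed rod marker level of 3896 and 4602 CPM, and the part of this in the ratios was not tested.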

How the results depend on the processing

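No paired analysis was possible because each genotype had 1 library, and for the same reason no library could be left out. In rods the median log2 ratio of the 9 genes (-0.09) was -0.19 with TMM factors, -0.21 with DESeq2 size factors, -0.14 with rods thinned to 1000 UMIs, -0.25 with rods weighted by 4 depth classes, and, as alternatives added after seeing the data, -0.029 weighted by cluster and -0.048 by cluster and depth class together. The number of the 9 lower past 1.2-fold (1) was 2 with DESeq2 factors, 2 after thinning, 3 with depth classes and 0 weighted by cluster, where 17%, 11.9%, 15.9% and 4.1% of all genes compared were lower (5.91% with total UMIs). At fold limits of 1.1 and 1.5 it was 2 and 0, against 18.9% and 0.441% of all genes. With other filters that share was 12% with no filter except 1 UMI in each library and 10.8% at a mean of at least 200 CPM.

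Gnat1 (log2 ratio 0.01) turned to -0.086 with TMM, -0.10 with DESeq2, -0.13 as the mean over rods, -0.14 after thinning, -0.033 without the 5% deepest rods, -0.31 with depth classes and -0.12 with 4 equal classes of each library's own depth, another alternative chosen after seeing the data. Pde6a (0.02) turned to -0.077, -0.095, -0.0066, -0.0036, -0.047 and -0.0016 under the same settings, apart from the deepest rods left out, where it kept its sign. The TMM and DESeq2 values differ from the reported ones by a constant shared by all genes. Gngt1 (-0.12) turned to 0.018 weighted by cluster. The other 6 genes kept their direction in all alternatives run in rods, and Pde6g ranged from -0.68 to -0.26. The cause of these shifts was not tested.

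The median level outside rods as a percentage of the rod level moved as follows. As the mean over cells it was 17.1% and 15.8% in BC, 24.2% and 23.4% in AC (Ptbp1-Ctrl and Ptbp1-KO), 69.2% in RGC and 12.5% in HC of Ptbp1-Ctrl. Thinned to 1000 UMIs it was 20.2% in cones, 15.5% in BC, 21.6% in AC, 14.4% in MG and 67.3% in RGC of Ptbp1-Ctrl, and 14.4% in BC and 20.8% in AC of Ptbp1-KO. Without the 5% deepest cells it was 21.2% in cones, 20.05% in AC, 15.0% in MG and 77.3% in RGC of Ptbp1-Ctrl, and 14.5% in BC of Ptbp1-KO. Without Gnb1 it was 26.2% in cones of Ptbp1-KO.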

Other observations

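In MG, BC and AC the richest cells held a larger part of the RNA of the cascade than in rods. With each cell thinned to 1000 UMIs and Gnb1 left aside, the 10% of cells richest in the other 8 genes held 37.6% and 40.5% of their UMIs in MG, 34.0% and 38.2% in BC, and 44.9% and 47.1% in AC, for Ptbp1-Ctrl and Ptbp1-KO. The same share was 17.8% and 19.6% in rods, 21.9% and 22.9% in cones, and 24.4% and 22.8% in RGC. None of the 8 genes had a UMI in 130 of 1663 MG of Ptbp1-Ctrl (7.82%) and 155 of 1173 MG of Ptbp1-KO (13.2%). The shares in AC were 8.0% and 13.6%, and 0 of 5903 and 0 of 6175 rods lacked them all. Both kinds of share depend on the mean count of the 8 genes, which was 5.52 and 4.42 UMIs in MG and 37.7 and 33.5 in rods. The variance over cells divided by that mean was 7.46 and 6.70 in MG, 6.81 and 7.79 in BC, and 15.6 and 16.7 in AC. In rods it was 6.08 and 6.74. At the upper end, the 95th percentile was 30.8 and 29.0 UMIs of the 8 genes per 1000 in AC, against medians of 35.0 and 30.0 in rods.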
